A study of Homo sapiens with 9 samples.

Results

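The 42 genes described here encode the machinery of mitosis and the spindle: the cyclins and kinases that start mitosis, the chromosomal passenger complex, the spindle checkpoint, centromere and kinetochore proteins, kinesin motors, other spindle microtubule proteins, condensin with topoisomerase, cytokinesis proteins and the regulators of anaphase. They were taken by symbol from a table of raw counts for 62710 Ensembl genes, where all 42 were matched and all 42 passed the filter on low counts, among 23075 genes tested. Polyadenylated RNA had been sequenced from early neuroepithelial cultures of H9, which is an established line of human embryonic stem cells, wild-type by its label. All 9 libraries shared the same induction: 72 h in mTeSR1, a pluripotency medium, on a Matrigel-coated plate of PDMS, a flexible silicone, followed by 48 h in N2B27 medium with SB431542 and LDN, inhibitors of TGF-beta and BMP receptors (dual SMAD inhibition). For a further 24 h under both inhibitors, 3 libraries' cultures stayed on a flat plate as the control, 3 were on a plate bent to a concave curvature and 3 on one bent to a convex curvature. H9 is 1 line from 1 embryo, and the labels do not say whether the replicates of a shape were separate cultures, so the tests measure the spread between these libraries.

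Cells enter mitosis when CDK1, bound to an A- or B-type cyclin, becomes active, and PLK1 and the Aurora kinases act beside it on centrosomes, chromosomes and the spindle. Microtubules then attach to kinetochores, the spindle checkpoint holds back the anaphase-promoting complex until every chromosome is attached, and CDC20 and UBE2C finally let that complex mark cyclin B and securin for destruction. Most of these genes are transcribed from late S phase to mitosis under a shared program, in which the DREAM and MuvB complexes bind the cell cycle homology region (CHR, TTTGAA or TTCGAA) and NF-Y binds CCAAT boxes. Embryonic stem cells and early neuroepithelium both divide rapidly, and in the neuroepithelium the nucleus travels to the apical surface to divide.

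Promoters are shown because the members are known for this shared regulation. RefSeq promoter windows of the table's build (GRCh38.p14), 250 bases before to 50 after each start, were found for 35 of the 42 members, as 42 windows. The windows were searched on both strands for the CHR letters (TTTGAA or TTCGAA) and for CCAAT and every match was counted, also where matches shared bases. CHR letters stood in 27 of the 35 members, or 77.1%, against 19.5% of all 27305 genes with a window. CCAAT stood in 28 members (80.0%, against 39.7% of all genes), and 17 members held 2 or more CCAAT matches (48.6%, against 12.9%). Both strings occurred within 1 window in 22 members, or 62.9%, against 7.85% of all genes. Of 69 other mitosis genes, 65.2% held CHR letters, 68.1% CCAAT and 44.9% both in 1 window. Among genes of DNA replication, 5.00% of 40 held CHR letters and 60.0% held CCAAT. The members' CCAAT matches had a median position 87 bases before the start and CHR matches 29 bases before it, against 96 and 125 bases over all promoters. A match is a description of letters only. The 200 bases before the RefSeq start are printed for 6 members, the 6 with the highest mean CPM when each role gives its most abundant member with a motif in its window. Capitals mark CHR and CCAAT matches, with ATTGG and TTCAAA being CCAAT and TTTGAA read on the opposite strand. The windows lie at chr17:40417897-40418096 (minus strand) for TOP2A, chr1:214602995-214603194 (plus) for CENPF, chr2:110678064-110678263 (minus) for BUB1, chr5:69166950-69167149 (plus) for CCNB1, chr1:43358781-43358980 (plus) for CDC20 and chrX:70289904-70290103 (plus) for KIF4A.
TOP2A: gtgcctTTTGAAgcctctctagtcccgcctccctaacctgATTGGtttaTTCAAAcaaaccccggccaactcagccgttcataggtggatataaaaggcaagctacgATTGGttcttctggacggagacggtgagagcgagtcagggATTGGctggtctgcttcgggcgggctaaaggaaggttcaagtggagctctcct
CENPF: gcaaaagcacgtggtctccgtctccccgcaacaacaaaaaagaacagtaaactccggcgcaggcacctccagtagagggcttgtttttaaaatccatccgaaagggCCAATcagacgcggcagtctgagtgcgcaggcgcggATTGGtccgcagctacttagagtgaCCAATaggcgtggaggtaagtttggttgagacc
BUB1: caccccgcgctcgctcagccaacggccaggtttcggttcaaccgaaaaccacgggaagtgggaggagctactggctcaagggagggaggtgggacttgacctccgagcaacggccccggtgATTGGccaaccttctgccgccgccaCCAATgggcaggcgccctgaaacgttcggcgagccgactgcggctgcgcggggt
CCNB1: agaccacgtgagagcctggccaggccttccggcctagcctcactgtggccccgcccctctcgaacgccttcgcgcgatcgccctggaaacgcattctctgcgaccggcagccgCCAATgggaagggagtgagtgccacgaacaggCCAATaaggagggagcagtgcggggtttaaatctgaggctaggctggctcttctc
CDC20: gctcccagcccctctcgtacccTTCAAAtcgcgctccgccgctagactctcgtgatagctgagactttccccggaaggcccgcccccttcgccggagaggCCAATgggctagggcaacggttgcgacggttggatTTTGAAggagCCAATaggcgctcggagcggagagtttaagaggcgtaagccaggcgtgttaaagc
KIF4A: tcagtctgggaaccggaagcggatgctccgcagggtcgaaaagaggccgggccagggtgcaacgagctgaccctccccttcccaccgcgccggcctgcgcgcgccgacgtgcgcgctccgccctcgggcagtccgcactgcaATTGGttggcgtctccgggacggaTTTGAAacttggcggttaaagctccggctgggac
TOP2A and CDC20 show CHR letters and CCAAT together, KIF4A has 1 of each close to the start, and CCNB1 shows 2 CCAAT matches with no CHR letters in its window. The CHR letters of CENPF and BUB1 lie after the start and outside the bases shown.

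The libraries held between 49420082 and 64763412 counts. Levels are in CPM, counts per 1000000 after scaling by library size and TMM factor (a correction for library composition), and are divided by transcript length wherever genes are compared with each other. Of 10 pluripotent cell markers, 9 were at 1 CPM or more in every library, and NANOG stayed at 0.475 CPM or less. TDGF1 ran from 1.11 to 4.73 CPM in numbers 1 and 2 and from 123 to 192.5 CPM in number 3. POU5F1, SOX2, LIN28A and OTX2 were abundant in all 9 libraries, and so were CDH2 (96.5 to 242 CPM), DLK1 (51.7 to 1769 CPM) and SIX3 (22.4 to 200 CPM) of the 12 early neuroepithelium markers. Of the same list, PAX6 stayed between 1.09 and 7.10 CPM, SOX1 between 1.47 and 4.91 CPM, ZIC1 between 2.32 and 14.5 CPM and LHX2 at 4.2 CPM or less, and HES5, SIX6 and FEZF2 were at or near 0. Summed markers of mesoderm and endoderm ran from 1.20 to 12.4 CPM, those of neurons from 34.4 to 66.1 CPM and those of non-neural ectoderm and neural crest from 8.32 to 15.2 CPM. The list of fibroblast, endothelial and blood markers ran from 491 to 1415 CPM, of which COL1A1 made up 462 to 1401 CPM. The libraries numbered 3 stood apart from numbers 1 and 2 in 16.3% of all genes tested, and flat 2 was the lowest of the 9 libraries for 29.9% of genes and the highest for 27.7%. Values of members without flat 2 are given beside those that it turns or moves by over 1.5 times. This covers the comparisons with flat plates and of number 2 with number 1. Values corrected for transcript length and values of other gene lists include flat 2.

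The members were expressed at high and even levels. By mean CPM per kilobase, TPX2, which activates Aurora A and nucleates spindle microtubules, was highest at 211, followed by UBE2C at 170, PTTG1 and CCNB1 at 126 each, CDC20 at 124, TOP2A at 110, BUB1 at 106, CCNB2 at 100 and AURKB at 99.2. PTTG1, CCNB1 and CDC20 are neighbours in that order, and the gaps between them were smaller than the spread of each gene over the libraries. At the low end stood CENPA at 13.2, CENPE at 11.8 and KIF18A at 10.2 CPM per kilobase. TPX2 was measured at 849, 669 and 757 CPM in flat libraries 1, 2 and 3, at 750, 743 and 722 CPM in the concave libraries and at 742, 784 and 625 CPM in the convex ones. With all 9 libraries its 3 groups overlapped. Flat 1 and flat 3 were above every concave library, so the overlap of flat and concave rested on flat 2. The log2 difference of TPX2 for concave against flat was -0.04, and -0.11 without flat 2. Over the 9 libraries, the standard deviation of a member's log2 level had a median of 0.197, against 0.273 for the 11954 genes tested that average at least 5 CPM. KIF4A, a chromokinesin of the anaphase midzone, was the steadiest member, between 173 and 210 CPM. SMC4, a core ATPase of condensin, varied most, between 54.8 and 217 CPM.

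NUSAP1 and PRC1, microtubule bundling proteins of the spindle and its midzone, were the exceptions, at means of 0.925 and 2.48 CPM (n = 9 libraries). In GENCODE v29, 62.2% of the exon bases of NUSAP1 are shared with a second gene on the same strand, ENSG00000285920, which was at 0 CPM, and 57.6% of those of PRC1 with ENSG00000284946, which averaged 9.63 CPM. Reads in shared bases may not have been assigned to either gene, which was not tested, so the levels of NUSAP1 and PRC1 are uncertain. In the same annotation 18.5% of the exon bases of SMC4 lie opposite TRIM59, itself expressed, and without a known strand setting reads there cannot be assigned with certainty. Copies of other members were low: CDC20P1 averaged 4.25 CPM, KIF4B 2.37 CPM and UBE2CP5 1.41 CPM.

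**Figure D1:**
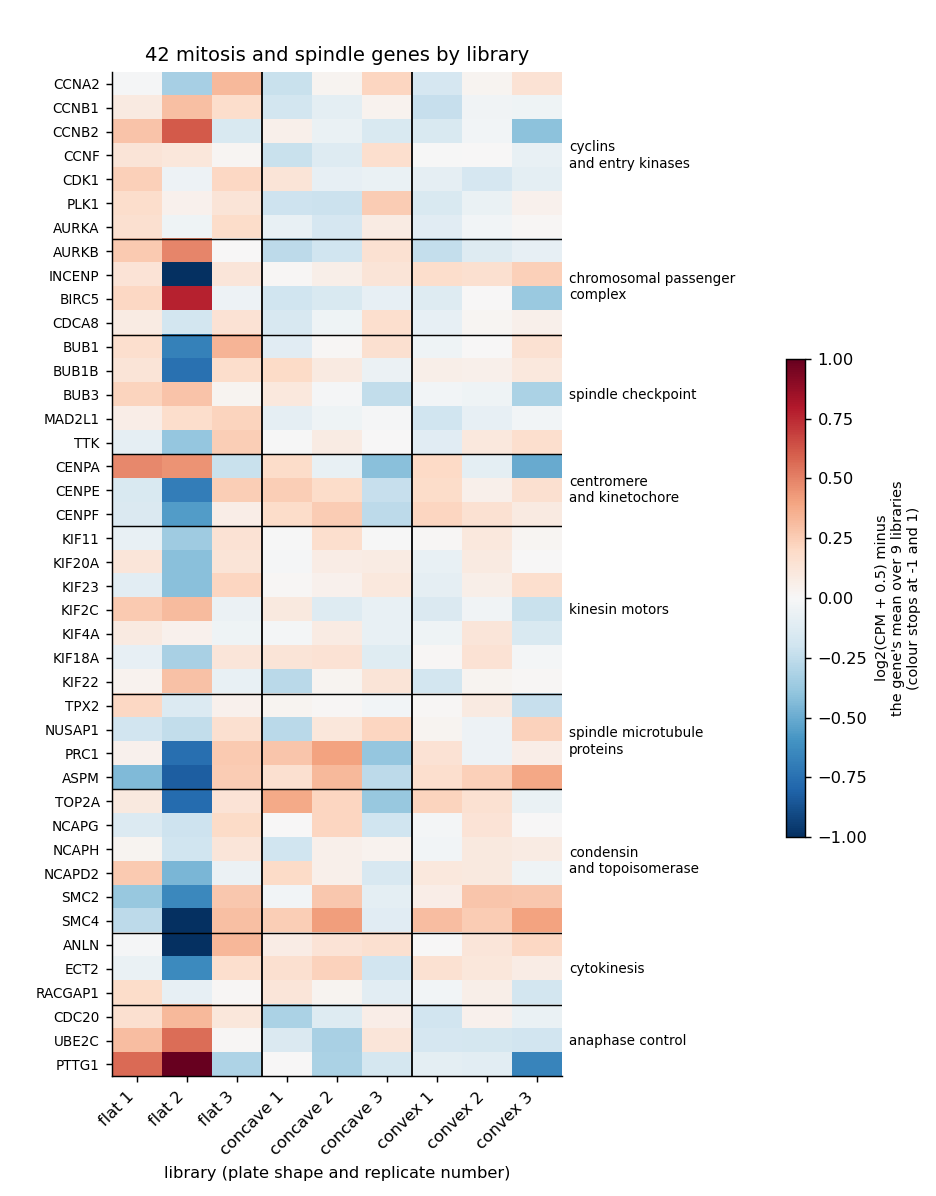
Heat map of log2(CPM + 0.5) minus each gene's mean over the 9 libraries, with genes in rows grouped by role and libraries in columns by plate shape and replicate number; the colour scale stops at -1 and 1. Flat 2 holds the strongest colours, being the lowest of the 9 libraries for 21 of the 42 genes and highest for 10.

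No mitosis gene passed the test between plate shapes. The comparisons with flat plates share the 3 flat libraries, so their values are set side by side and are not independent. Of the 42 members, 0 passed an adjusted p of 0.05 in edgeR's quasi-likelihood test in either comparison with flat plates or between the concave and convex ones, where 0% of all 23075 genes did as well. DESeq2 and limma voom also called 0 members in each. The smallest adjusted p of a member was 0.841 for concave plates and 0.513 for convex plates, each against flat, and 1.00 between them. The median log2 difference over the members was -0.01 for concave against flat, with 20 members above 0 and 22 below, and 0.01 for convex against flat, with 21 on each side. Without flat 2 it was -0.07, with 9 above 0 and 33 below, and -0.11, with 10 above 0 and 32 below, so the even split turned on 1 library. Over all genes tested both medians were 0.01 with flat 2, with 51.6% and 50.8% of genes above 0. Without flat 2 they were 0.0034 and -0.0068, with 50.6% and 49.3% above 0. Standard errors of single members ran from 0.129 to 0.375 on the log2 scale, with a median of 0.175 for concave against flat. In bulk RNA, fewer cells in mitosis and less RNA per cell cannot be told apart.

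Without passing the test, the anaphase regulators, B-type cyclins and several passenger and checkpoint genes had lower mean levels on both bent plates, and SMC2, SMC4, CENPE, CENPF and ASPM were among those with higher ones. PTTG1 is securin, the inhibitor of separase whose destruction frees sister chromatids. PTTG1 (ENSG00000164611, chr5:160421822-160428744) had 156, 227 and 85.0 CPM in flat libraries 1, 2 and 3, 106, 84.8 and 93.5 CPM in the concave libraries and 98.7, 97.9 and 66.7 CPM in the convex ones. Flat 1 and flat 2 were above every library of a bent plate, and flat 3 lay inside their range. The log2 difference was -0.72 (SE 0.307) for concave against flat and -0.83 (SE 0.308) for convex against flat. Without flat 2 it was -0.34 and -0.46. UBE2C, the ubiquitin-conjugating enzyme of the anaphase-promoting complex (ENSG00000175063, chr20:45812576-45816957), had 176, 209 and 143 CPM on flat plates, 128, 113 and 154 CPM on concave and 126, 125 and 124 CPM on convex plates. All 3 convex libraries were below the flat ones, while concave 3 lay inside the flat range. Its log2 difference was -0.42 (SE 0.176) and -0.49 (SE 0.176), and -0.27 and -0.35 without flat 2. CDC20, which activates the same complex at anaphase, was at 237, 266 and 229 CPM on flat, at 170, 194 and 223 CPM on concave and at 185, 219 and 202 CPM on convex plates. All 6 bent-plate libraries were below the lowest flat library, by little in concave 3. Its log2 difference was -0.32 (SE 0.155) on concave and -0.27 (SE 0.154) on convex plates. The median of the 3 anaphase regulators was -0.42 on concave and -0.49 on convex plates, or -0.27 and -0.35 without flat 2.

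The 7 cyclins and entry kinases were all below 0 on the log2 scale in both comparisons, with medians of -0.15 for concave and -0.17 for convex against flat. Without flat 2 all 7 were still below 0, with medians of -0.18 and -0.22. CCNB1, the main mitotic B-type cyclin, had 289, 336 and 306 CPM in the flat libraries, 239, 253 and 278 CPM in the concave and 231, 265 and 263 CPM in the convex ones. The 3 flat libraries were above all 6 others. The log2 difference was -0.27 (SE 0.143) and -0.29 (SE 0.143), and -0.21 and -0.24 without flat 2. CCNB2, a second B-type cyclin, had 187, 234 and 138 CPM on flat, 158, 146 and 138 CPM on concave and 137, 150 and 115 CPM on convex plates. Here flat 3 was at or below several bent-plate libraries, so the groups overlapped, and the log2 differences were -0.34 (SE 0.200) and -0.47 (SE 0.201), or -0.13 and -0.28 without flat 2. CDK1, the kinase that these cyclins activate, was at 150, 123 and 147 CPM on flat, at 140, 120 and 121 CPM on concave and at 119, 113 and 119 CPM on convex plates. The convex libraries were all below the flat ones. The log2 difference was -0.14 (SE 0.142) for concave and -0.26 (SE 0.142) for convex against flat, or -0.22 and -0.35 without flat 2. CCNA2, the cyclin of S phase and early mitosis, had means of 140 CPM on flat and on concave plates and 138 CPM on convex plates (SD 31.7, 20.8 and 15.0, n = 3 each). Its log2 difference was -0.0017 (SE 0.195) and -0.01 (SE 0.195), or -0.14 and -0.17 without flat 2, its lowest library.

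In the chromosomal passenger complex, which corrects faulty kinetochore attachments, the kinase AURKB and its partner BIRC5 had lower mean levels on both bent plates and the scaffold INCENP did not. BIRC5, also called survivin, had 217, 320 and 181 CPM on flat, 164, 169 and 177 CPM on concave and 172, 188 and 145 CPM on convex plates. Every concave library was below every flat one, and convex 2 lay inside the flat range. The log2 difference was -0.49 (SE 0.209) and -0.51 (SE 0.209), and -0.22 and -0.25 without flat 2. AURKB, the kinase of the complex, was at 144, 169 and 120 CPM on flat, at 99.8, 105 and 133 CPM on concave and at 102, 110 and 113 CPM on convex plates. Concave 3 lay inside the flat range and no convex library did. Its log2 difference was -0.36 (SE 0.173) and -0.41 (SE 0.173), or -0.23 and -0.29 without flat 2. INCENP, the scaffold, was at 100, 44.8 and 99.1 CPM on flat, at 92.0, 95.0 and 99.7 CPM on concave and at 103, 102 and 108 CPM on convex plates. INCENP differed by 0.23 (SE 0.258) and 0.36 (SE 0.258), and by -0.05 and 0.06 without flat 2, its lowest library.

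Among the 5 checkpoint genes, BUB3 and MAD2L1 were below 0 on both bent plates, while BUB1, BUB1B and TTK were above 0 with flat 2 and below 0 without it. MAD2L1 encodes the MAD2 protein that holds CDC20 inactive. MAD2L1, whose values were chosen for display after they were seen, had 113, 122 and 126 CPM on flat, 101, 105 and 107 CPM on concave and 93.9, 102 and 106 CPM on convex plates. No library of a bent plate reached the lowest flat value, and the log2 difference was -0.21 (SE 0.129) and -0.26 (SE 0.129). BUB3, an adaptor that brings the checkpoint kinases to kinetochores, was at 282, 295 and 246 CPM on flat, at 260, 240 and 204 CPM on concave and at 238, 234 and 194 CPM on convex plates. The convex libraries were all below the flat ones and concave 1 was not, with log2 differences of -0.22 (SE 0.159) and -0.30 (SE 0.159). BUB1, a kinase that marks the inner centromere, was at 413, 230 and 464 CPM on flat, at 339, 371 and 410 CPM on concave and at 357, 368 and 409 CPM on convex plates. Flat 2 was far below the other 8 libraries. The difference was 0.02 (SE 0.235) and 0.03 (SE 0.235) with flat 2, and -0.23 and -0.22 without it, so the direction of BUB1 turned on 1 library. BUB1B, a checkpoint kinase relative of BUB1, went from 0.17 (SE 0.223) and 0.16 (SE 0.223) to -0.07 and -0.09.

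**Figure D2:**
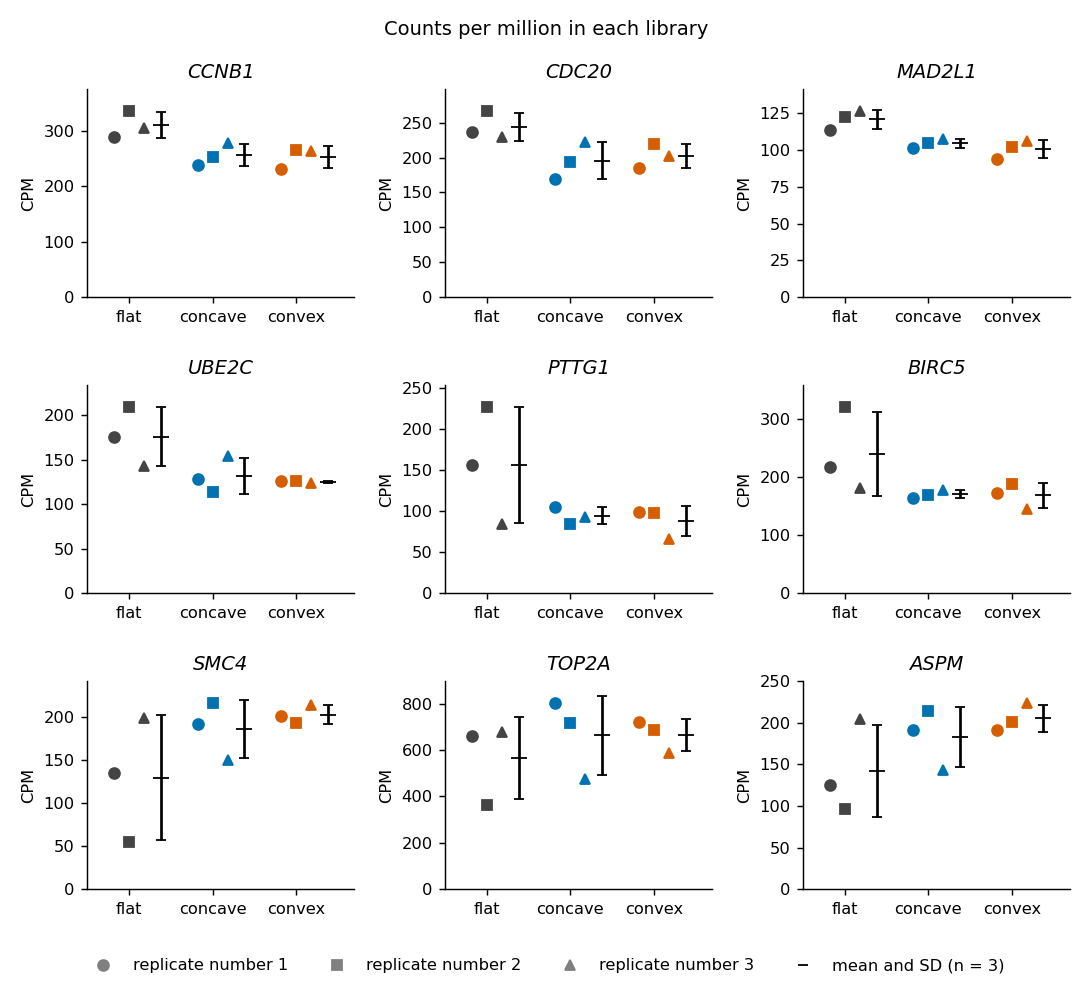
CPM of 9 members in each library by plate shape, with symbols for the replicate number and bars for the mean and SD (n = 3); each axis starts at 0. The 3 flat libraries lie above all others for CCNB1, CDC20 and MAD2L1, flat 2 is the highest for UBE2C, PTTG1 and BIRC5 and the lowest for SMC4, TOP2A and ASPM.

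Condensin, spindle-pole and outer kinetochore genes had differences above 0 on bent plates that shrank without flat 2. SMC4 (ENSG00000113810, chr3:160399274-160434962) had 135, 54.8 and 200 CPM on flat, 192, 217 and 150 CPM on concave and 201, 193 and 215 CPM on convex plates. Flat 2 was the lowest library by far, and flat 3 lay inside the range of the bent plates. The log2 difference was 0.52 (SE 0.363) and 0.65 (SE 0.363), falling to 0.16 and 0.27 without flat 2. SMC2, its partner in condensin, was at 62.8, 52.1 and 98.6 CPM on flat, at 80.4, 98.9 and 76.4 CPM on concave and at 85.8, 99.2 and 98.7 CPM on convex plates. Flat 3 was within 1 CPM of the highest bent-plate library, and SMC2 differed by 0.26 (SE 0.227) and 0.41 (SE 0.227), or 0.08 and 0.22 without flat 2. ASPM, a spindle-pole protein whose loss causes microcephaly, had 126, 96.5 and 204 CPM on flat, 192, 214 and 143 CPM on concave and 192, 202 and 224 CPM on convex plates. The groups overlapped through flat 3, and the log2 difference was 0.37 (SE 0.261) and 0.53 (SE 0.261), or 0.16 and 0.31 without flat 2. CENPF, a large outer kinetochore protein, was at 391, 295 and 453 CPM on flat, at 494, 517 and 361 CPM on concave and at 504, 482 and 461 CPM on convex plates. All convex libraries were above the flat ones, and concave 3 lay inside the flat range. Its log2 difference was 0.27 (SE 0.198) and 0.35 (SE 0.198), or 0.12 and 0.19 without flat 2. TOP2A, the topoisomerase that untangles sister chromatids, was at 660, 362 and 677 CPM on flat, at 802, 716 and 473 CPM on concave and at 719, 685 and 586 CPM on convex plates. Its difference of 0.23 (SE 0.267) in both comparisons shrank to a size under 0.02 without flat 2. Of the 6 genes of condensin and topoisomerase, 5 were above 0 for concave and 6 for convex plates, with medians of 0.16 and 0.17. Without flat 2 the medians were -0.01 in both, with 2 and 3 genes above 0.

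Motors and cytokinesis genes differed in both directions. The 7 kinesins had medians of 0.09 for concave and 0.05 for convex against flat, between -0.22 and 0.14 for concave plates and between -0.32 and 0.13 for convex ones. Without flat 2 the kinesin medians were -0.0040 and -0.04, with 5 and 6 of the 7 below 0. KIF2C, a kinesin that shortens microtubules at kinetochores, was the lowest, at 130, 135 and 104 CPM on flat, 116, 98.8 and 103 CPM on concave and 97.8, 106 and 92.8 CPM on convex plates. On concave plates the KIF2C difference of -0.22 (SE 0.151) was -0.14 without flat 2. KIF4A was at 206, 199 and 187 CPM on flat, 190, 204 and 183 CPM on concave and 188, 210 and 173 CPM on convex plates, a log2 difference of -0.04 (SE 0.138) and -0.05 (SE 0.138), and -0.02 and -0.05 without flat 2. Among the cytokinesis genes, ANLN, the scaffold of the contractile ring, was at 163, 80.6 and 207 CPM on flat, 173, 180 and 183 CPM on concave and 165, 178 and 190 CPM on convex plates. Its log2 difference was 0.25 (SE 0.276) and 0.24 (SE 0.276), and -0.04 and -0.07 without flat 2. ECT2, the exchange factor that starts furrowing, differed by 0.22 (SE 0.206) and 0.26 (SE 0.206), and by 0.03 and 0.06 without it.

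Counts of members were read against the same counts over all genes tested. For concave against flat, 0 members were higher at an unadjusted p under 0.05 in edgeR, where 1.98% of all genes were. Lower by that rule were 3 members, BIRC5, PTTG1 and UBE2C, where 2.56% of genes were. For convex against flat, 0 members were higher (4.03% of genes) and 5 were lower, AURKB, BIRC5, CCNB2, PTTG1 and UBE2C (5.22% of genes). Without flat 2 these counts of lower members fell to 0 for concave plates (0.210% of genes) and to 1, CDK1, for convex plates (1.23%), and 0 members were higher in either (1.42% and 2.21%). Groups did not overlap for 4 members lower on concave plates, BIRC5, CCNB1, CDC20 and MAD2L1, beside 2.96% of genes, and for 0 higher, beside 3.78%. On convex plates 8 members were wholly below flat, AURKB, BUB3, CCNB1, CCNF, CDC20, CDK1, MAD2L1 and UBE2C, beside 7.76% of genes, and 2 wholly above, CENPF and INCENP, beside 8.91%. By the same overlap rule without flat 2, which leaves fewer libraries to separate, 9 members were wholly lower on concave plates (5.00% of genes) and 0 higher (6.20%), and on convex plates 14 were lower (10.3%) and 2 higher (11.7%). Members lower without overlap came to 9.52% on concave and 19.0% on convex plates, above the share over all genes, and no member passed the adjusted test.

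Number-matched pairs of libraries were compared as well. Lower in all 3 number-matched pairs of concave and flat were 9 members, AURKA, BIRC5, BUB3, CCNB1, CDC20, CDK1, CENPA, KIF2C and MAD2L1, beside 12.5% of genes, and higher in all 3 were 0, beside 11.3%. In the convex and flat pairs 14 members were lower throughout (25.3% of genes) and 6 higher, ASPM, CENPF, INCENP, NUSAP1, SMC2 and SMC4 (24.3%). With pair 2 left out because of flat 2, 17 members were lower on concave plates (20.2% of genes) and 0 higher (18.8%), and 25 lower on convex plates (33.0%) and 6 higher (32.2%). The members' median within pairs 1, 2 and 3 was -0.12, 0.30 and -0.11 for concave and -0.16, 0.26 and -0.13 for convex against flat, so the pair with flat 2 had the opposite sign to the others. With the replicate number as a block, 5 members were lower at an unadjusted p under 0.05 on concave plates (4.86% of genes), BIRC5, CDC20, CENPA, PTTG1 and UBE2C, and 0 higher (4%). On convex plates 9 were lower (10.3%), AURKB, BIRC5, BUB3, CCNB1, CCNB2, CENPA, KIF2C, PTTG1 and UBE2C, and 0 were higher (7.99%). With the block and without flat 2, 0 members were lower on concave plates (1.06% of genes) and 6 on convex plates (3.95%), BUB3, CCNB2, CDK1, CENPA, MAD2L1 and PTTG1, and 0 were higher in either (2.58% and 4.50%). No member passed the adjusted p with the block and all libraries, where the smallest was 0.506 and 0.264 in edgeR.

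The members' differences varied with transcript length. The 14 shortest members, 850 to 2630 bases, had medians of -0.30 for concave and -0.28 for convex against flat, with 13 of 14 below 0 in each comparison. The 14 of middle length, 2763 to 4087 bases, had medians of 0.09 in both, and the 14 longest, 4283 to 10890 bases, 0.18 in both. Without flat 2 the medians were -0.22 and -0.24 for the shortest members, -0.07 and -0.11 for the middle ones and -0.01 in both comparisons for the longest, of which 8 of 14 were then below 0. The values above 0 of the middle and longest members therefore turned on flat 2. These groups were formed after the differences were seen. Across the 42 members, which share the 9 libraries, the Spearman correlation of log2 difference with length was 0.683 for concave and 0.680 for convex against flat, and 0.647 and 0.642 without flat 2. Over 21940 genes with a length it was 0.246 and 0.277. Within number-matched pairs of concave and flat the members' correlation was 0.756, 0.704 and -0.632 for numbers 1, 2 and 3, and 0.211, 0.382 and -0.255 over all genes, so the third pair ran the opposite way. Between convex and flat it was 0.723, 0.703 and 0.332 for the members and 0.236, 0.411 and 0.0271 for all genes. Flat 2 carried the steepest trend, with the shortest members at a median of 0.32 above their 9-library mean, the middle ones at -0.40 and the longest at -0.51. Among the 14 longest members, CCNF, KIF4A, MAD2L1 (5468 bases) and BUB3 (7828 bases) were below 0 in both comparisons. Length moved with these results. Only 1 correction for it was run, and whether length caused the differences was not tested. After a lowess curve on length was subtracted per library (limma), PTTG1 differed by -0.47 and -0.56, UBE2C by -0.27 and -0.30, CCNB1 by -0.20 and -0.21, MAD2L1 by -0.36 and -0.47, SMC4 by 0.54 and 0.63 and ASPM by 0.13 and 0.22 for concave and convex plates. CENPF was at -0.0032 and -0.0044 after this correction, while BUB3 on concave plates went from -0.22 to -0.45. The correction was run only with flat 2 included. Without flat 2 the uncorrected difference of SMC4 on concave plates was 0.16.

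**Figure D3:**
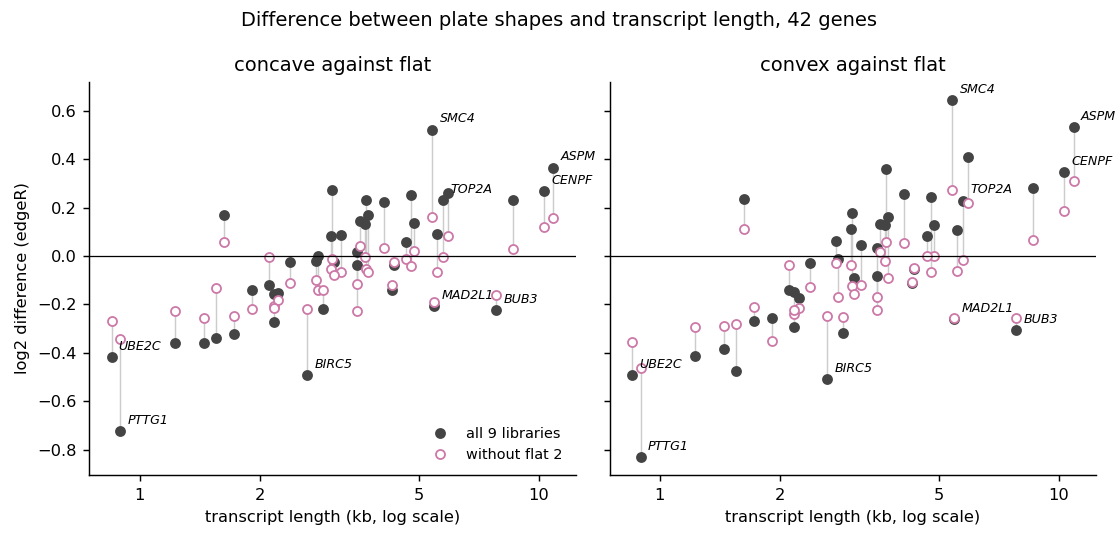
Log2 difference of each of the 42 members against transcript length in kilobases on a log axis, for concave and convex against flat; filled points use all 9 libraries, open points leave out flat 2 and grey lines join them. Of the 14 shortest members 13 lie below 0 (PTTG1 at -0.72 and -0.83), and the longest lie mostly above it (ASPM at 0.37 and 0.53) with all 9 libraries, while without flat 2, 8 of the 14 longest lie below 0 in each panel.

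Between concave and convex plates the members differed by small amounts. Of the 42 members, 0 were higher and 0 lower at an unadjusted p under 0.05, beside 0.182% and 0.0997% of all genes, and the log2 differences ran from -0.17 for ASPM to 0.14 for CCNB2. Only CDK1 was higher in every concave than in every convex library, at 140, 120 and 121 against 119, 113 and 119 CPM, beside 1.49% of genes. Only INCENP was lower in every one, at 92.0, 95.0 and 99.7 against 103, 102 and 108 CPM, beside 2.08% of genes. CDK1 differed by 0.12 (SE 0.142) and INCENP by -0.13 (SE 0.258). For NCAPH, a condensin subunit, the values were 67.8, 80.9 and 80.0 CPM on concave and 76.4, 83.4 and 82.6 CPM on convex plates, a difference of -0.08 (SE 0.146).

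By replicate number, 1 member passed the test. Between number 3 and numbers 1 and 2, 16.3% of all genes passed an adjusted p of 0.05, 7.59% higher and 8.68% lower, while 1 of the 42 members did and it was lower. That member was CENPA (ENSG00000115163, chr2:26764289-26801067), the histone H3 variant that marks the centromere. CENPA had 26.3 and 25.6 CPM in flat 1 and 2 and 15.9 CPM in flat 3, 21.2 and 17.7 against 13.8 CPM in the concave libraries, and 21.5 and 17.4 against 13.0 CPM in the convex ones. Each library numbered 3 was below all 6 others. CENPA was lower in number 3 by a log2 difference of -0.59 (SE 0.134, edgeR adjusted p = 0.0146). The adjusted p was 0.0627 without flat 3 and 0.102 without convex 3, so its call rested on each of these libraries. In GENCODE v29, 6.96% of its exon bases are shared with SLC35F6 on the same strand. The comparison of number 3 with numbers 1 and 2 was chosen because these libraries were known to differ, and the p-values do not allow for that choice.

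Other members came close in both directions. CCNA2 was at 137 and 110 against 173 CPM on flat, at 118 and 141 against 160 CPM on concave and at 123 and 141 against 152 CPM on convex plates, numbers 1 and 2 given before number 3. Every library numbered 3 was above the other 6, with a log2 difference of 0.34 (SE 0.127, edgeR adjusted p = 0.0992). CCNB2 differed by -0.36 (SE 0.134, edgeR adjusted p = 0.0973) and PTTG1 by -0.56 (SE 0.208, edgeR adjusted p = 0.0938), with the values given above. PTTG1 in concave 3 was inside the range of concave 1 and 2. KIF23, the kinesin of the central spindle, was at 114 and 91.9 against 143 CPM on flat, 124 and 126 against 132 CPM on concave and 115 and 128 against 138 CPM on convex plates, a difference of 0.25 (SE 0.125). PLK1 was at 182 and 166 against 176 CPM on flat, 140 and 139 against 192 CPM on concave and 145 and 153 against 166 CPM on convex plates, a difference of 0.22 (SE 0.119). At an unadjusted p under 0.05, 1 member was higher (14.5% of genes) and 4 lower (16.5%), BUB3, CCNB2, CENPA and PTTG1. Without overlap, 4 were higher, ANLN, CCNA2, KIF23 and NUSAP1 (11.7% of genes), and 2 lower, CENPA and KIF4A (12.5%). The members' median was 0.06, with 27 above 0 and 15 below, against 0.00 over all genes, and it was -0.05 with library size as the only scaling. Leaving out 1 library at a time gave medians from -0.08 to 0.09. Within flat, concave and convex plates the members' median for number 3 was 0.20, -0.04 and 0.03, so it was largest on flat plates and below 0 on concave ones.

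**Figure D4:**
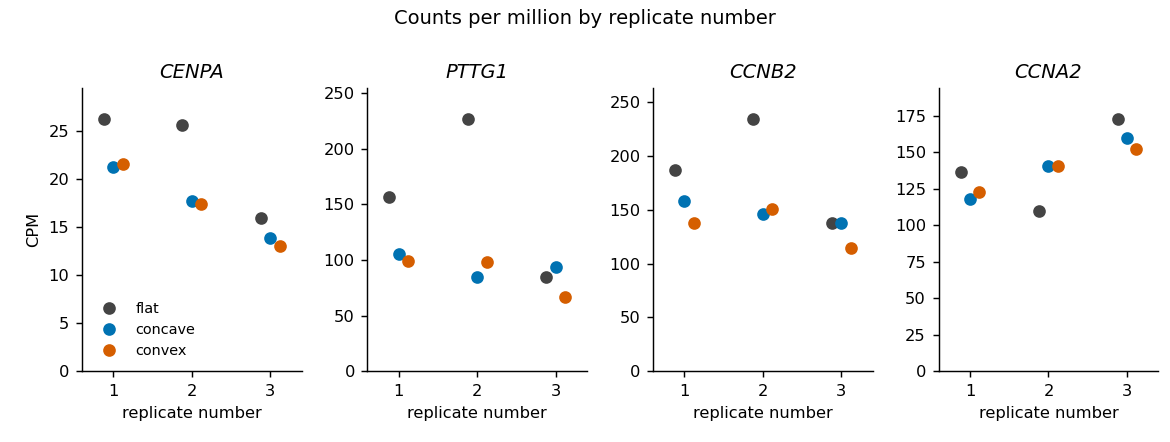
CPM of CENPA, PTTG1, CCNB2 and CCNA2 by replicate number, 1 point per library coloured by plate shape and shifted sideways so that points do not hide each other; each axis starts at 0. CENPA in the 3 libraries numbered 3 lies between 13.0 and 15.9 CPM, below the other 6, and CCNA2 in those libraries lies between 152 and 173 CPM, above the other 6.

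Cell type markers moved with the number 3 libraries. Of 10 pluripotent cell markers, 8 rose and 1 fell in number 3, and the summed list was between 5397 and 5477 CPM there against 3848 to 4294 CPM in numbers 1 and 2. Of 12 early neuroepithelium markers 10 were tested, 6 fell and 0 rose, and the sum was between 915 and 1206 CPM against 2050 to 3142 CPM. SOX2 is in both lists and was the pluripotent cell marker that fell. DLK1, at 51.7 to 1769 CPM, and SOX2, at 470 to 822 CPM, made up much of the neuroepithelium sum. The part of these marker changes in the result for CENPA was not tested. Between numbers 2 and 1, 0 members were called beside 0% of all genes. At an unadjusted p under 0.05, 0 were higher (3.88% of genes) and 0 lower (4.66%), and without overlap 0 were higher (6.75%) and 1 lower (8.10%). That member was NCAPD2, a condensin subunit, at 170, 242 and 249 CPM in number 2 of flat, concave and convex plates against 279, 267 and 250 CPM in number 1. Its difference was -0.28 (SE 0.165), or -0.08 without flat 2, its lowest library. Without flat 2, 10 members were higher without overlap (16.9% of genes), among them ANLN, ASPM, CCNA2 and SMC2, and 4 lower (18.2%), CENPA, NCAPD2, PTTG1 and UBE2C. At an unadjusted p under 0.05, SMC2 alone was then higher (4.11% of genes) and CENPA alone lower (5.82%). The upward difference with the smallest p was that of KIF22, a chromokinesin, at 0.26 (SE 0.141), with 193, 160 and 160 CPM in number 2 against 161, 130 and 138 CPM in number 1.

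The other lists of cell cycle genes are given beside the members, and differences between lists were not tested. Over all genes tested, 50% were above 0 in number 3, 7.59% were called higher and 8.68% lower, and the calls of each list are read against these shares. Of 45 genes of DNA replication, 40 were above 0 in number 3 and 4 rose, RRM2, CDC25A, ORC6 and CCNE1, with a list median of 0.27 against 0.06 for the mitosis genes. Within flat, concave and convex plates the replication medians were 0.26, 0.31 and 0.16, against 0.20, -0.04 and 0.03 for the mitosis genes. Both flat values include flat 2, the library with the lowest median deviation of the mitosis genes. RRM2, the small subunit of ribonucleotide reductase, was at 103 and 116 against 208 CPM on flat, 95.0 and 150 against 209 CPM on concave and 121 and 157 against 209 CPM on convex plates. It rose by 0.76 (SE 0.160, edgeR adjusted p = 0.0105). Of 82 other mitosis genes tested, 60 were above 0, 3 rose, SKA3, PKMYT1 and CENPI, and 1 fell, CENPH. Of 24 regulators of mitotic transcription, 18 were above 0 and 1 rose, E2F8, a repressor of the E2F family. Of 11 tested G1 cyclins and inhibitors of cyclin-dependent kinases, 3 rose, CDK6, CCND1 and CCND3, and 1 fell, CDKN1C. Between numbers 2 and 1, 43 of the 45 replication genes were above 0, with a median of 0.21, against 18 of the 42 mitosis genes, with a median of -0.02. Without flat 2, 30 of the 42 mitosis genes were above 0, with a median of 0.09. Between plate shapes, 0 genes of any of these 4 lists were called in any comparison. Of the other mitosis genes, the smallest p in both comparisons with flat plates was that of CKS2, the small partner of CDK1, at 141, 193 and 116 CPM on flat, 114, 98.1 and 102 CPM on concave and 97.7, 102 and 90.3 CPM on convex plates. It differed by -0.52 (SE 0.188) on concave and -0.64 (SE 0.188) on convex plates, without passing the adjusted test. Flat 2 was the highest library for CKS2, and these differences are not given without it. Per library, the mitosis genes had a median deviation of 0.10, -0.20 and 0.13 in flat 1, 2 and 3, of 0.00, 0.04 and -0.04 in the concave libraries and of -0.03, 0.05 and 0.01 in the convex ones. The replication genes were at -0.14, -0.04 and 0.21 on flat, -0.33, 0.02 and 0.18 on concave and -0.11, 0.08 and 0.14 on convex plates. The replication list was highest in number 3 of every shape, and the mitosis list was not.

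**Figure D5:**
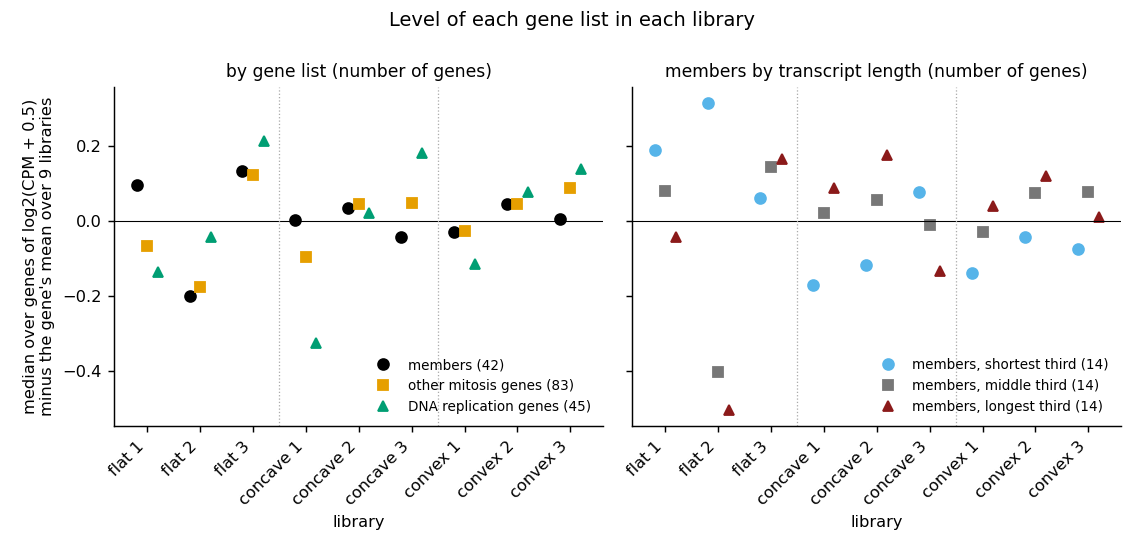
Median over genes of log2(CPM + 0.5) minus the gene's 9-library mean, for each library; the left panel shows the members, the other mitosis genes and the DNA replication genes, and the right panel the members in 3 groups of 14 by transcript length. In flat 2 the shortest members are at 0.32 and the longest at -0.51, a wider gap than in any other library.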

How the data were processed

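Polyadenylated, strand-marked RNA libraries were sequenced and aligned with HISAT2 to GRCh38, and reads were counted per gene with featureCounts, per the submitters' processing notes; no version, annotation release or strand setting is recorded in those notes. The authors deposited raw counts for 62710 Ensembl genes in 9 libraries of 49420082 to 64763412 counts, and 71 identifiers without a symbol held at most 0.0109% of a library. Genes passing edgeR 4.0.16's filter (23075) were fitted in R 4.3.3 with TMM factors and the robust quasi-likelihood test in 1 fit over all 9 libraries, with Benjamini-Hochberg adjustment over all genes tested and a threshold of 0.05. The common biological coefficient of variation was 0.329. Fits were tested on simulated data, with known changes given to genes drawn from all genes tested. At the threshold, 0% of genes changed 1.5-fold were recovered in each of the 5 comparisons. Of genes changed 2-fold, 8% to 20.4% were recovered, and of genes changed 4-fold, 49% to 61.2%. These shares hold for all genes tested, and recovery was not simulated for the members alone. For concave against flat the members' median standard error was 0.175, against 0.221 for genes at 5 CPM or more. Log2 levels use a pseudocount of 0.5, and a gene's transcript length is the median of its APPRIS principal transcripts (GENCODE v29). Alternatives used limma 3.58.1 and DESeq2 1.42.0, other scalings and filters, leaving out each library, the replicate number as a block, and a lowess length correction (span 0.3). Leaving out flat 2 from pair, overlap and unadjusted counts was chosen after seeing the data. The members and lists were chosen with earlier results of these data known. Values per library are given for the 2 members with the highest CPM per kilobase in each role and up to 4 members with the smallest p per direction and comparison, with other members chosen after their values were seen. Same-numbered libraries deviated together with r of 0.372, 0.397 and 0.620 for flat and convex and 0.579, 0.290 and 0.612 for concave and convex, but 0.379, 0.0211 and 0.338 for flat and concave, where number 2 fell under the 0.1 taken as pairing.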

Additional observations from a re-analysis of the deposited data

How the results depend on the processing

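With the replicate number as a block, 0 members were called between plate shapes and the members' median log2 difference was -0.01 for concave and 0.03 for convex against flat; the block changed no call. Leaving out 1 library at a time gave medians of -0.07 to 0.06 for concave against flat, -0.11 to 0.11 for convex against flat, -0.0064 to 0.0369 for concave against convex, -0.0843 to 0.0873 for number 3 and -0.08 to 0.09 for number 2 against number 1, with 0 members called between shapes each time. In number 3, 1 member was called, against 4 at an adjusted p of 0.1, 4 with library size as the only scaling, 2 with no filter on low counts, 3 after the length correction and 0 to 2 with 1 library left out (0 without flat 3 or convex 3, 2 without flat 2 or concave 3, where PTTG1 was added). Over all genes, 1278 were called higher and 2662 lower of 23075 with library size as the only scaling. With no filter it was 2222 and 2590 of 41037, and after the length correction 2268 and 2458 of 21940. Without flat 2 it was 22.7% of genes, and without concave 3 it was 1101 and 1282 of 23825. The all-gene share at an adjusted p of 0.1 is not given here. Scaling by library size alone turned the members' number 3 median to -0.05 and moved the all-gene median for concave against flat to 0.06. The level of convex 3 was -0.0404 by summed CPM against 0.01 by the median. Without flat 2, a choice made after seeing the data, members lower at an unadjusted p under 0.05 went from 3 to 0 on concave and from 5 to 1 on convex plates, members lower without overlap from 4 to 9 and from 8 to 14, and members lower in every pair from 9 to 17 and from 14 to 25; fewer libraries make the latter criteria easier to meet. In number 2 against number 1 it took members without overlap from 0 to 10 higher and from 1 to 4 lower, and those at an unadjusted p under 0.05 from 0 to 1 in each direction. The cause of the other shifts was not tested. Single genes were recomputed only for the up to 4 members per comparison with the smallest p, so these counts do not cover BUB1, BUB1B, TTK, INCENP or ANLN, each of which changed sign without flat 2 in at least 1 comparison with flat plates. Of the single-gene values recomputed, 369 kept direction and side of the threshold. Another 5 crossed it upward (PTTG1 in number 3) and 2 lost it (CENPA in number 3 without flat 3 or convex 3). Of the values recomputed for the members as a list, 223 stayed the same and 22 moved. With 3 libraries a shape, the members' standard errors of 0.129 to 0.375 limit what could be detected.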
